A study of Mus musculus with 2 samples.

Results

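Toll-like receptors of the cell surface were examined together with the proteins that work beside them. The genes are Tlr1, Tlr2, Tlr4, Tlr5, Tlr6, Cd14, Ly96 and Cd180, taken by name from the raw transcript tables, and all 8 were found among the 17751 genes there. They were followed in splenic dendritic cells (DCs) sorted as live MHCII+ CD11c+ cells after T and B cell depletion. One library came from WT C57BL/6 mice and the other from Batf3-/- mice on the same background, all females aged 8 weeks, which lack the transcription factor Batf3 in every cell. Each library holds the pooled spleens of 6 mice, so n = 1 library per genotype, no test between genotypes was possible, and any difference in source or handling of the mice cannot be told apart from genotype. The WT mice were purchased and the Batf3-/- mice bred in house.

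Surface Toll-like receptors recognise molecules on the outside of microbes and signal through adaptor proteins to NF-kB and type I interferon. TLR2 pairs with TLR1 or TLR6 to bind bacterial lipopeptides, TLR5 binds flagellin, and TLR4 binds lipopolysaccharide only with its partner MD-2, the product of Ly96, to which CD14 hands the ligand. CD180 is a relative of TLR4 that has no signalling domain of its own and is carried to the surface by MD-1, the product of Ly86. Conventional DCs (cDCs) are divided into cDC1, which depend on Batf3 in mice and present antigen to CD8+ T cells, and cDC2.

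Levels are unique molecular identifiers (UMIs, each counting 1 captured transcript) summed over the cells of a cluster and library and divided by all UMIs of those cells, per 1000000 (CPM). The cells were grouped by the 20 clusters deposited by the authors, of which 17 (C0 to C16) held at least 100 cells. By the study's annotation C0, C5, C7, C8, C9 and C10 are cDC2a, of which C5, C7 and C10 are mitotic, C8 is mature and C9, also listed by the study as mixed cDC2, is rich in mitochondrial transcripts. C2 and C11 are cDC2b, of which C11 is mature, C1 is a mature Il4i1+ cDC2 and C3 a Sox4+ cDC. C4 is cDC1, C6 mitotic cDC1 and C12 mature cDC1, while C13 holds NK cells, ILCs and T cells, C14 plasmacytoid DCs (pDCs), C15 monocytes and C16 cells of mixed identity.

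The libraries hold 12224 WT cells with 122530055 UMIs and 12119 Batf3-/- cells with 114517073 UMIs, at a median of 8454 UMIs per cell over both. The range was from 741 to 37040 UMIs. By median depth the clusters ran from 1479 UMIs per cell in C9 to 19017 in C6, and 56 barcode sequences occur in both libraries. Batf3 itself stood between 39.1 and 312.7 CPM over the 17 clusters in WT cells and between 0 and 21.7 CPM in Batf3-/- cells. C4 and C12 held only 31 cells each in the Batf3-/- library, so genotypes were compared only in the 15 clusters with at least 50 cells in each. All intervals are exact 95% intervals that cover counting error only, from Poisson counts for CPM, from the binomial split of UMIs for ratios, and after Clopper and Pearson for shares of cells.

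Tlr1 and Tlr6 are neighbours on chromosome 5 of the mouse genome GRCm38, Tlr1 at chr5:64924679-64933563 and Tlr6 at chr5:64952031-64960097, both on the minus strand. Their coding sequences are alike, and of the 2935 stretches of 91 bases in the Tlr1 transcript 286 also occur in the Tlr6 transcript. None of these lies in the last 500 bases of either transcript, where the 3′ reads of this method start, so the counts of this pair can be read apart. No other gene overlaps Tlr2 at chr3:83836272-83841767, Tlr4 at chr4:66827584-66930284, Tlr5 at chr1:182954788-182976044 and Ly96 at chr1:16688051-16709611. Cd180 at chr13:102693558-102739629 is overlapped on the other strand by Mast4.

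The 250 bases before the start were searched for motifs of factors that DCs use, because Tlr1 and Tlr6 had like profiles over clusters, as given further on. RefSeq windows (GRCm38.p6) were at hand for Tlr1, Tlr2, Tlr5, Tlr6 and Cd180, with 2 alternative starts each for Tlr1, Tlr6 and Cd180. The motifs, read on both strands, were GAGGAAGT for PU.1, TGANTCA for AP-1 (the family of Batf3), and those of NF-kB, of IRF factors and of joint ETS and IRF sites. The matches are shown in capitals, each in a stretch of 30 bases on the strand of the gene, from chr5:64933564-64933593 for Tlr1 and from chr5:64959260-64959289 for Tlr6.
Tlr1: aattaaatgttgGAGGAAGTaggagcttga
Tlr6: ctattctTTTCTCTTTCACTTTCtgtttga
The Tlr1 window shown held the PU.1 letters 23 bases before the start, which 2.44% of all 32851 windows hold. The window of its other start (chr5:64932700-64932949) held no match, and 211 of its 250 bases lie in annotated exons. So do 159 of the 250 bases of the Tlr2 window. The Tlr6 window held a pair of overlapping IRF matches on the opposite strand, at 116 and 110 bases before the start, and 2.98% of windows hold that motif. This is the window of an inner RefSeq start of Tlr6 (chr5:64959167-64959416), which lies within the gene as annotated and outside its exons, and the window of the outer start held no match. The AP-1 letters occur in 6.75% of windows and in none of these members' windows, the NF-kB motif in 0.356% and the joint motif in 2.30%, again in none of theirs. These are matches of letters and no binding was measured.

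Tlr1 was lower in the cDC1 clusters C4 and C6 than in cDC2 clusters of the WT library. In WT cells it stood at 31.4 CPM (29.1 to 33.8) in C0, 49.1 CPM in the mature C1, 39.2 CPM in C2 and 46.9 CPM in C11. In WT cDC1 it stood at 4.21 CPM (3.55 to 4.96) in C4 and 2.94 CPM (2.15 to 3.92) in the mitotic C6. The intervals of C4 and C6 were far below those of every cDC2 cluster. Mature cDC1 (C12) stood at 17.2 CPM (12.8 to 22.6). Its interval overlapped those of C3 (15.8 to 22.9), C5 (21.4 to 28.9) and C7 (17.7 to 24.9). Over both libraries the order of clusters ran from 75.4 CPM in C9 through 43.7 in C11 and 42.7 in C1 down to 4.45 in C4, and the intervals of C11 and C1 overlapped. The lead of C9 rests on 110 UMIs in the shallowest cluster, where mitochondrial transcripts take part of the total. T, NK, NKT and ILC cells of C13, 291 in all, had Tlr1 at 11.2 CPM (6.51 to 17.9), so a level of that size is not particular to DCs.

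Tlr5 followed the same division with a sharper edge. It stood at 8.25 CPM in WT C0 and 6.40 CPM in Batf3-/- C0, at 6.64 and 9.17 CPM in the Sox4+ C3, and at 16.8 and 18.5 CPM in C9. In WT C4 14 UMIs gave 0.410 CPM (0.224 to 0.688), C6 stood at 0.384 CPM in WT and 0.371 CPM in Batf3-/- cells, and the monocytes of C15 had no UMI in either library, which allows up to 2.33 CPM over both. In WT the intervals of C4 and C6 lay below those of C0, C3 and C9.

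To read such low values, the cDC2 markers Dtx1 and Clec4a4 were set beside them, a choice made after values were seen. The other markers of the cDC2 list were not scaled one by one. The whole list of 6 summed to 682.1 CPM in WT C0, 50.9 CPM in WT C4 and 41.8 CPM in WT C6. In WT C4 Dtx1 and Clec4a4 stood at 4.67% and 4.31% of their own C0 level, and in WT C6 at 3.75% and 2.87%. Tlr5 stood at 4.97% of its C0 level in C4 and at 4.65% in C6. Tlr1 stood at 13.4% in C4 and 9.38% in C6, above both markers, which does not place it above the rest of the list. Tlr2 in C4 was at 94.2% of its C0 level.

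Tlr2, the shared subunit of the lipopeptide receptors, had no such division and was above 10 CPM in all 17 clusters over both libraries. In C13 (10.4 CPM) the lymphoid cells stood at 2.63 CPM (0.717 to 6.74) and the cells labelled DC at 19.5 CPM in WT and 13.5 CPM in Batf3-/-. Monocytes of C15 led with 38.6 CPM (29.5 to 49.5), followed by C11 with 34.3, C2 with 33.1 and C8 with 31.3 CPM, and the intervals of these 4 clusters overlapped. C15 led in WT (44.5 CPM) but not in Batf3-/- cells, where it stood at 22.9 CPM on 10 UMIs and C2, C8 and C11 were at 35.8, 35.2 and 35.2 CPM. From C10 (20.1 CPM) down to C13 (10.4 CPM) each cluster overlapped the next. Mature cDC2a (C8) stood at 27.3 CPM in WT cells and 35.2 CPM in Batf3-/- cells, against 17.3 and 19.9 CPM in C0. In WT cDC1 (C4) it stood at 16.3 CPM, and its interval overlapped that of C0 in the same library.

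Tlr6 was low everywhere. Over both libraries its levels ran from 5.98 CPM in C11 (26 UMIs) to 0.598 CPM in C16 (1 UMI), with 4.05 CPM in C0, 4.79 CPM in C2 and 1.99 CPM in C4, and each cluster's interval overlapped the next. Clusters farther apart in this order could still differ. The intervals of C0 (3.48 to 4.69) and C2 (3.94 to 5.75) lay above those of C4 (1.55 to 2.52) and C6 (0.982 to 1.87). The 291 lymphoid cells of C13 gave 2.63 CPM (0.717 to 6.74), so most of these levels could not be separated from theirs.

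Tlr4 was low in mature cDC1, Il4i1+ mature cDC2 and Sox4+ cDCs. In monocytes it stood at 6.98 CPM in WT and 9.17 CPM in Batf3-/- cells on 8 and 4 UMIs. In cDC2b it was 3.38 CPM (C2) and 5.03 CPM (C11) in WT, and 4.37 and 4.69 CPM in Batf3-/- cells. In Il4i1+ mature cDC2 (C1) 7 UMIs over both libraries gave 0.375 CPM (0.151 to 0.772), and in mature cDC1 (C12) none was counted, which allows up to 1.14 CPM. C0 stood at 1.97 and 2.97 CPM and WT C4 at 2.34 CPM (1.86 to 2.91). In the Sox4+ C3 13 UMIs gave 0.609 CPM (0.324 to 1.04). The intervals of C1, C12 and C3 were below those of C0 and C4, while that of the mature C8, at 1.67 CPM (0.911 to 2.79), overlapped both. The mixed C16 also had no UMI, which allows up to 2.21 CPM, and the lymphoid cells of C13 stood at 1.31 CPM (0.159 to 4.75), an interval that takes in most clusters.

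Ly96, which encodes the partner of TLR4, was highest in mature cDC1, Il4i1+ mature cDC2 and monocytes. Mature cDC1 (C12) led with 43.8 CPM (36.9 to 51.6) and Il4i1+ mature cDC2 (C1) followed with 36.7 CPM (34.0 to 39.6), with overlapping intervals. Monocytes stood at 32.9 CPM (24.5 to 43.1), an interval that overlapped both, and in WT they were at 35.8 CPM against 32.0 CPM in C1. C11 stood at 23.0 and pDCs at 18.8 CPM. C4 stood at 13.8 CPM, C8 at 11.5 CPM, C0 at 8.70 CPM and C3 at 5.25 CPM. The lymphoid cells of C13 had 5.26 CPM (2.27 to 10.4). Across the 17 clusters the profiles of Tlr4 and Ly96 had r = -0.04 on the log2(CPM + 1) scale, a description of clusters that share their libraries.

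Cd14 (chr18:36725067-36726798), the co-receptor that carries lipopolysaccharide, was at 10 CPM or more in 5 of the 17 clusters. C15 stood at 33.5 CPM (25.1 to 43.8), C11 at 30.6 (25.6 to 36.3), C8 at 16.4, C2 at 13.7 and C3 at 11.5 CPM. C4 followed with 4.62 CPM (3.93 to 5.39), and the other 11 clusters lay between 0.642 and 2.78 CPM. In C0, the largest cluster with 6137 cells, 41 UMIs gave 0.938 CPM. Lymphoid cells of C13 had none, which allows up to 2.43 CPM.

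Cd180 stood at 26.9 CPM or more in each of the 17 clusters over both libraries and was highest in pDCs. Those of C14 stood at 188 CPM (167 to 211) in WT and 178 CPM (154 to 206) in Batf3-/- cells. Mature cDC2a (C8) stood at 150 and 126 CPM and C0 at 109 and 99.0 CPM, while WT cDC1 (C4) were at 98.6 CPM (95.3 to 102). Mature cDC1 in WT (C12) were lower, at 51.6 CPM (43.7 to 60.4). The lymphoid cells of C13 had 4.60 CPM (1.85 to 9.48), where C13 as a whole stood at 27.8 CPM. Ly86, which encodes the partner of CD180, also had its highest level in C14, 643 CPM (613 to 675), and its lowest of the 17 in C12, 107 CPM.

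**Figure D1:**
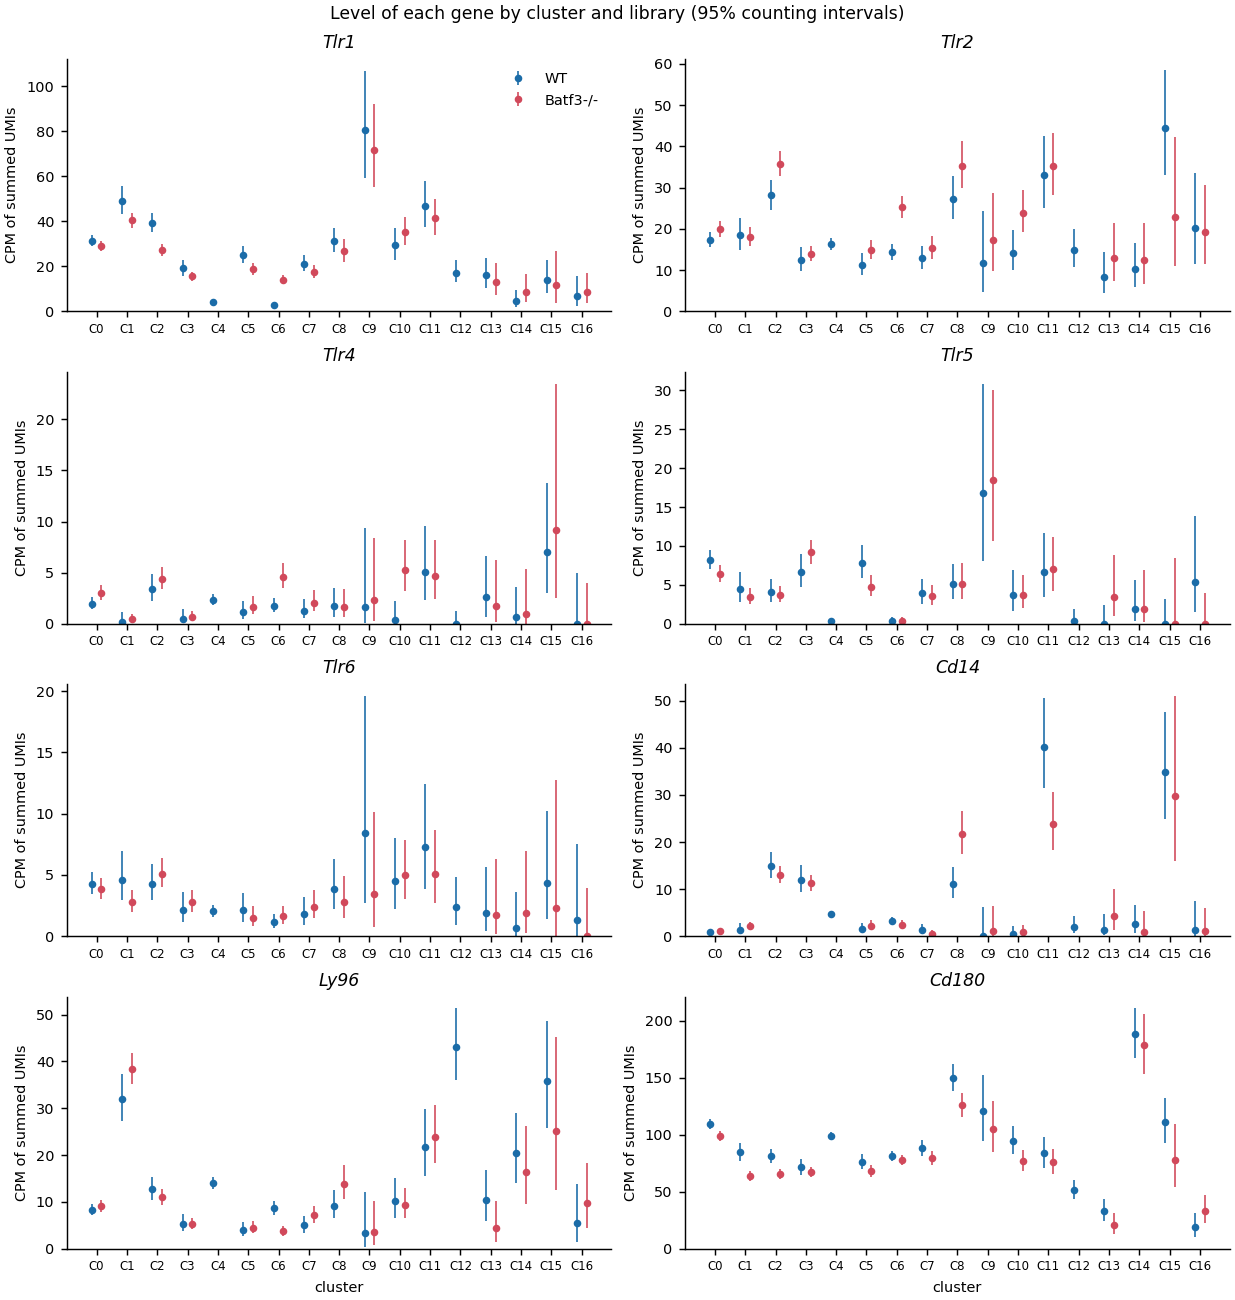
Level of each of the 8 genes in CPM (vertical axes, linear and different for each gene) in clusters C0 to C16, for WT (blue) and Batf3-/- (red) libraries, shown where a library had at least 50 cells. Points are summed UMIs per 1000000 and bars are exact 95% Poisson intervals, which cover counting error only. In WT, Tlr1 is lowest in C6 and C4, at 2.94 and 4.21 CPM, Ly96 is highest in C12 at 43.1 CPM, Cd14 in C11 at 40.2 CPM and Cd180 in C14 at 188 CPM.

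Few single cells showed these transcripts at equal depth. Each cell was thinned to 1000 UMIs, and shallower cells (28 in WT and 42 in Batf3-/-) were dropped. Cd180 was then seen in 9.61% of C0 cells (8.88 to 10.4), 13.5% of C8 cells and 12.5% of C14 cells, against 0.687% of the 291 lymphoid cells. The unthinned median depths were 6871 UMIs in C0 and 4317 in the lymphoid cells. Tlr1 was seen in 3.05% of C0 and 4.45% of C1 cells against 0.344% of lymphoid cells, and in 0.224% of C4 cells, no more than there. Tlr4 in C0 (0.277%) and Tlr6 in every cluster (at most 0.683%) were no more frequent than in lymphoid cells (0.687% each), but the latter are 2 of 291 cells, so nothing is read from these shares. For Cd180 and Tlr1 the lymphoid shares rest on no more cells than that, so the size of those contrasts is not read either. In CPM, Tlr1 stood at 30.1 in C0 over both libraries and at 11.2 in the lymphoid cells. Ly96 was seen in 3.86% of C1 and 3.56% of C12 cells against 1.37% of lymphoid cells. Unthinned, a Cd180 UMI was counted in 11335 and a Tlr4 UMI in 509 of all 24343 cells.

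Subunits of a receptor were looked for in the same cells. At 1000 UMIs per cell, 57 of 24273 cells had a Tlr4 UMI and 325 a Ly96 UMI, and no cell had both, where the product of the shares gives 0.862 cells. Tlr1 and Tlr2 were found together in 12 cells against 11.9 from the shares, Tlr2 and Tlr6 in none against 1.59, and Cd180 and Ly86 in 654 against 622. At the full depth 52 cells had both Tlr4 and Ly96 UMIs against 51.1 from the shares, 746 had Tlr1 and Tlr2 against 681, and 123 had Tlr2 and Tlr6 against 114. Cd180 and Ly86 were found together in 10533 cells against 10270 from the shares. The shares at full depth take no account of depth differences between cells of a cluster, so no excess is read from these counts. At 2000 UMIs per cell Tlr1 and Tlr2 were together in 36 cells against 45.8, and Tlr2 and Tlr6 in 8 against 6.27.

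Genotypes were compared by the log2 ratio of CPM, Batf3-/- over WT, for genes with at least 50 UMIs over both libraries of a cluster, and a ratio of 1.5-fold or more was counted. Of the 120 pairs of member and cluster 66 had enough UMIs, and 7 of them were higher and 6 lower in Batf3-/- cells. Over all genes 3.50% of 116418 pairs were higher and 3.44% lower by as much. The members hold few UMIs, and genes with few UMIs pass such a fold more often by counting error, so the count over all clusters is given without a reading. In mitotic cDC1 (C6) 6 members could be compared, and 3 were higher (Tlr1, Tlr2, Tlr4) and 1 lower (Ly96). Of the 10076 genes compared in C6, 7.26% were higher and 7.00% lower. The median log2 ratio in C6 was 0.38 over the members and 0.01 over all genes. The 6 member ratios ran from -1.23 (Ly96) to 2.25 (Tlr1), so this median describes no common shift.

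C6 held 797 WT and 727 Batf3-/- cells. In it Tlr1 stood at 2.94 CPM in WT (46 UMIs in 42 cells) and 13.96 CPM (12.0 to 16.1) in Batf3-/- cells (188 UMIs in 158 cells). This is 4.75-fold higher, a log2 ratio of 2.25 (1.78 to 2.75), and the intervals of the libraries were far apart. The Batf3-/- level was near that of the mitotic cDC2a of C5 in the same library, 18.6 CPM (16.2 to 21.4), whose interval lay just above it. It overlapped that of the mitotic C7, 17.3 CPM (14.6 to 20.4), and that of lymphoid cells. The mitotic C10 was clearly higher, at 35.25 CPM (29.5 to 41.8). Tlr1 was past the fold in none of the other 10 clusters where it could be compared, and its ratio was below 0 in 9 of 11 clusters, from -0.52 in C2 upwards.

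Tlr2 in C6 stood at 14.3 CPM (12.5 to 16.3) in WT and 25.3 CPM (22.6 to 28.1) in Batf3-/- cells, a log2 ratio of 0.82 (0.57 to 1.07). That is above both C4 in WT (16.3 CPM) and C5 in Batf3-/- cells (14.8 CPM). Tlr4 stood at 1.73 CPM (27 UMIs) and 4.61 CPM (62 UMIs), a log2 ratio of 1.42 (0.74 to 2.12). Its Batf3-/- level was likewise above C5 of the same library, 1.69 CPM (1.00 to 2.67). The mitotic cDC2a of C10 had both at the level of C6 in the Batf3-/- library, Tlr2 at 23.9 CPM (19.2 to 29.3) and Tlr4 at 5.30 CPM (3.24 to 8.19). Ly96 went the other way, from 8.70 CPM (7.30 to 10.3) in WT to 3.71 CPM (2.76 to 4.90) in Batf3-/- cells, a log2 ratio of -1.23 (-1.73 to -0.75). The latter level overlapped C5 of the same library, 4.50 CPM. It lay below the other mitotic cDC2a of that library, C7 at 7.14 CPM (5.44 to 9.21) and C10 at 9.28 CPM (6.46 to 12.9). The intervals of the lymphoid cells, wide on 8 UMIs of Ly96 and 2 of Tlr4, overlapped the C6 levels of both genotypes for both genes.

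The other members differed less in C6. Cd180 stood at 81.4 and 77.8 CPM, a log2 ratio of -0.07 (-0.19 to 0.05). Cd14 stood at 3.13 and 2.38 CPM, a log2 ratio of -0.40 (-1.09 to 0.27). Tlr5 with 6 and 5 UMIs and Tlr6 with 18 and 22 UMIs were too low to be compared. In Batf3-/- C6 Tlr5 was at 5.80% of its C0 level and Tlr1 at 48.3%, where Dtx1 and Clec4a4 were at 2.51% and 3.15%. Dtx1 and Clec4a4 do not stand for the whole list of 6 cDC2 markers. The list summed to 41.8 CPM in WT C6 and 197.5 CPM in Batf3-/- C6, against 682.1 and 634.9 CPM in C0. Tlr1 is therefore not read as standing apart from the cDC2 markers in C6. Of the receptors low in WT cDC1, Tlr1 had a higher level in Batf3-/- C6, and Tlr5 had too few UMIs for a ratio. The Tlr5 level in Batf3-/- C6, 0.371 CPM (0.121 to 0.867), lay below that of C5 in the same library, 4.78 CPM (3.56 to 6.28).

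Other features of C6 moved with genotype too. The share of cells in S or G2M phase was 98.4% in WT and 74.0% in Batf3-/- cells. The summed level of the 5 cDC1 markers (all detected) went from 2158 to 432.9 CPM, with Xcr1 from 397 to 45.7 CPM and Clec9a from 203 to 82.1 CPM. That of the 6 cDC2 markers (all detected) went from 41.8 to 197.5 CPM, of which Cd209a made up 14.9 and 139 CPM. The monocyte markers, of which 1 of 6 was at 0 in both libraries, stood at 326 and 423 CPM. In the monocyte list Vcan was the marker at 0. Their part in the receptor ratios was not tested. Among cells in S or G2M phase the log2 ratio was 2.24 (1.74 to 2.77) for Tlr1, 0.73 for Tlr2, 1.27 for Tlr4 and -1.15 for Ly96. Cells in G1 gave 0.21 (-1.42 to 2.54) for Tlr1, on 3 UMIs in only 13 WT cells.

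Subsets by marker were drawn after values were seen. Among C6 cells with a UMI of Xcr1 or Clec9a, 781 in WT and 558 in Batf3-/-, the log2 ratio was 2.26 (1.75 to 2.78) for Tlr1, 0.76 (0.50 to 1.03) for Tlr2, 1.51 (0.81 to 2.23) for Tlr4 and -1.21 (-1.76 to -0.69) for Ly96. These cells are most of the cluster, so their ratios could differ little from those of all C6 cells. Among C6 cells without a UMI of Cd209a, 717 and 253, Tlr1 stood at 2.63 and 11.1 CPM, a log2 ratio of 2.08 (1.44 to 2.73). Among those with one, 80 and 474, it stood at 5.83 and 15.5 CPM, a log2 ratio of 1.41 (0.44 to 2.57). The cells with neither Xcr1 nor Clec9a were only 16 in WT, with 3 Tlr1 UMIs (13.3 CPM), against 169 in Batf3-/- with 16.4 CPM. In C4, which held too few Batf3-/- cells for a comparison, Tlr1 stood at 4.21 CPM in WT and 21.3 CPM (10.2 to 39.1) in Batf3-/- cells, on 10 UMIs in 5 of 31 cells. In the same cells the cDC1 markers summed to 2704 and 1022 CPM, the cDC2 markers to 50.9 and 163.6 CPM and the macrophage markers to 84.8 and 365.5 CPM, and their part was not tested.

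**Figure D2:**
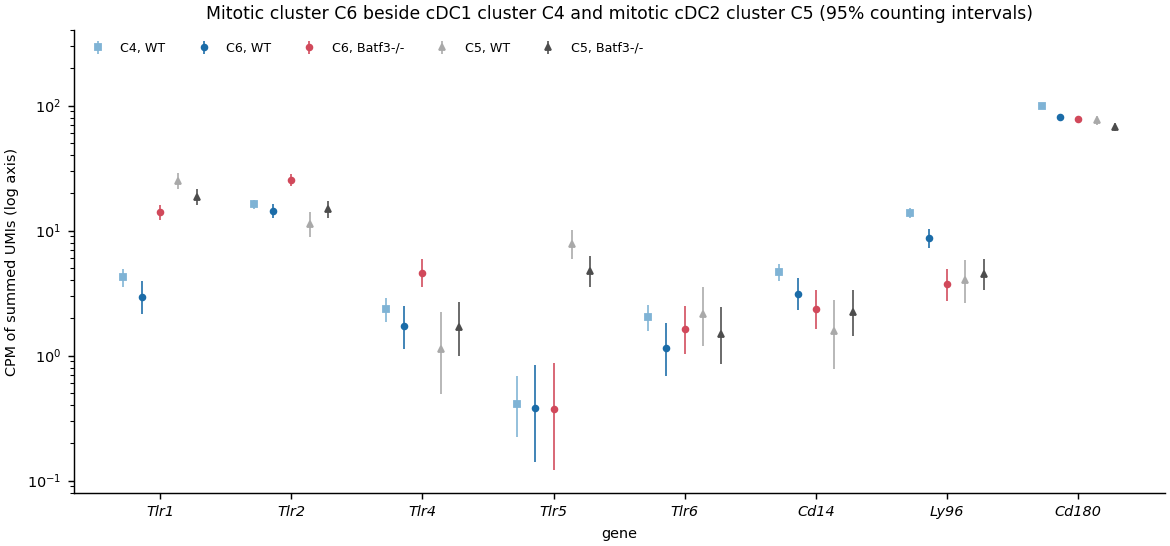
Level of each gene in CPM (logarithmic vertical axis) in cDC1 of C4 (WT, light blue squares), mitotic cDC1 of C6 (WT blue and Batf3-/- red circles) and mitotic cDC2a of C5 (WT grey and Batf3-/- black triangles). Bars are exact 95% Poisson intervals. In C6 the Batf3-/- points for Tlr1, Tlr2 and Tlr4 lie above the WT points and the one for Ly96 below, and the Tlr5 points, at 0.384 and 0.371 CPM, rest on 6 and 5 UMIs.

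Outside C6 the ratios past the fold were scattered. Higher in Batf3-/- cells were Tlr2 in C10 (14.2 and 23.9 CPM, log2 ratio 0.74, 0.17 to 1.35), Tlr4 in C0 (1.97 and 2.97 CPM, 0.59, 0.01 to 1.18), Cd14 in C8 and Ly96 in C8 (9.17 and 13.9 CPM). Lower were Tlr5 in C5 (7.83 and 4.78 CPM, -0.71, -1.29 to -0.14), Tlr6 in C1 (4.63 and 2.77 CPM, under 1.5-fold without called doublets), Tlr2 in C15 (44.5 and 22.9 CPM on 51 and 10 UMIs), Cd14 in C11 and Cd180 in C13. The intervals for Ly96 in C8, Tlr6 in C1, Tlr2 in C15 and Cd180 in C13 include 0. Tlr4 in C10, with too few UMIs to be counted, had 1 UMI in WT and 20 in Batf3-/- cells, 0.407 and 5.30 CPM, a log2 ratio of 3.70 (1.06 to 9.08). In C15 the summed neutrophil markers (4 of 4 detected) stood at 9288 and 19980 CPM, the monocyte markers (6 of 6) at 13070 and 19520 CPM and the cDC1 markers (5 of 5) at 828.7 and 133 CPM, and their part in the Tlr2 ratio was not tested. For Tlr2 the ratio was above 0 in 9 of 11 clusters, with the interval above 0 in 4 of them. These ratios come from the same pair of libraries and are not independent. No share over all genes was taken for these clusters, so the count is given without a reading.

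Cd180 was a little lower in Batf3-/- cells in the clusters compared. Its ratio was below 0 in all 14 clusters where it could be compared, with a median of -0.18, a range of -0.66 to -0.07, and an interval below 0 in 6 of them (C0, C1, C2, C5, C8 and C10). The -0.66 is that of C13, which was 0.87 without called doublets and -0.05 as a mean of per-cell CPM. Cells of C13 labelled DC gave -1.57 (-2.62 to -0.62) on 45 and 12 UMIs, and its lymphoid cells 1.02 (-1.54 to 3.80) on 3 and 4. Of the 3 clusters left out for too few cells or UMIs, the Batf3-/- level was the higher one in C4 (98.6 and 127.5 CPM) and C16 (18.9 and 33.3 CPM) and the lower one in C12 (51.6 and 47.0 CPM). In C1 it stood at 84.5 and 63.4 CPM and in C2 at 81.3 and 65.4 CPM. Of the 2775 genes with enough UMIs in the same 14 clusters, 32 (1.15%) were lower and 39 (1.41%) higher in Batf3-/- cells in all of them. The 14 ratios come from 1 pair of libraries and are not independent, and the pattern was picked after it was seen.

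**Figure D3:**
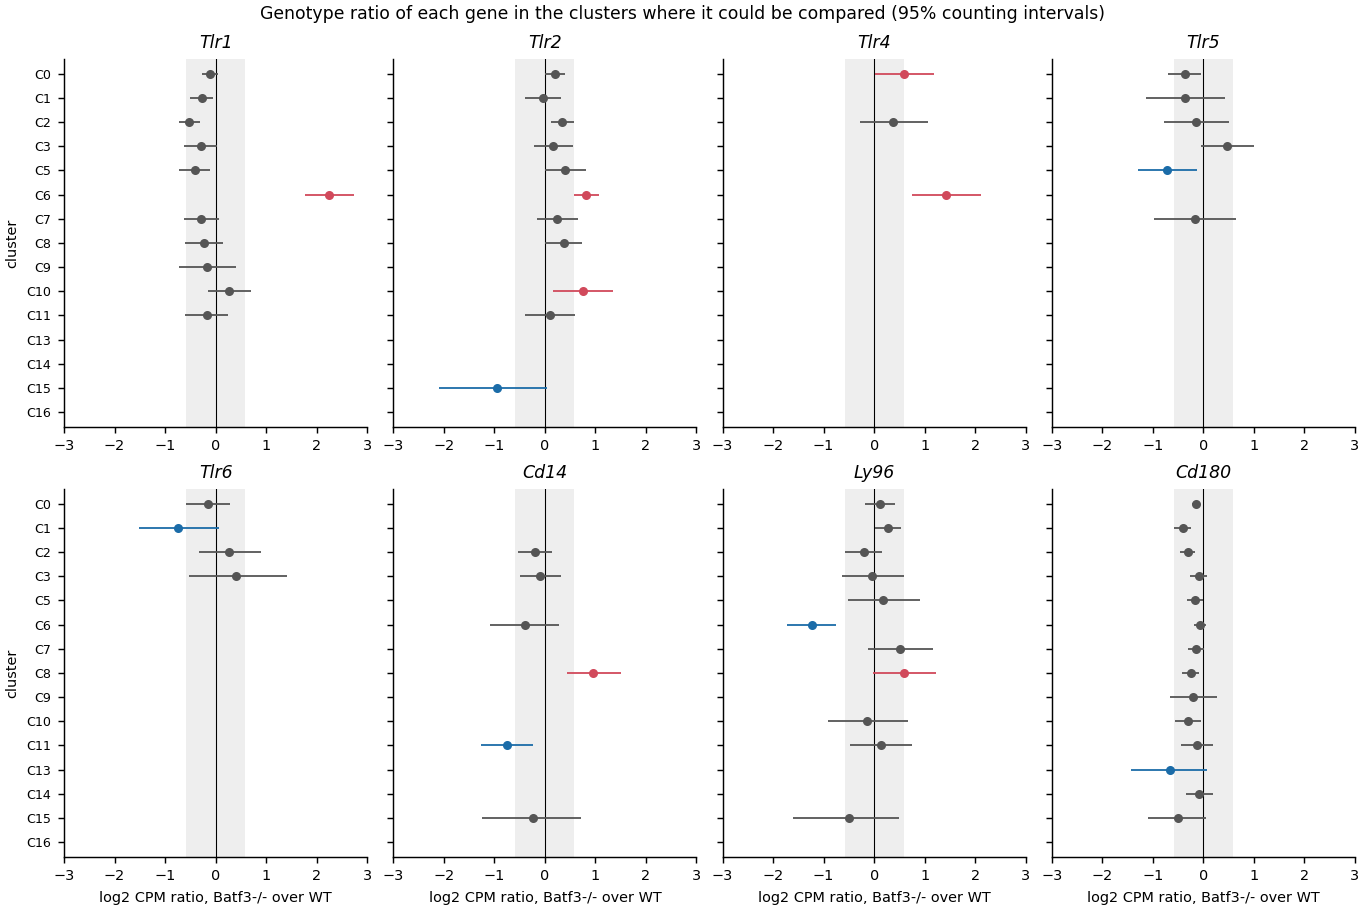
Log2 CPM ratio, Batf3-/- over WT (horizontal axes), of each gene in each of the 15 clusters (vertical axes) in which it had at least 50 UMIs. Bars are exact 95% counting intervals, the grey band marks less than 1.5-fold, and points past it are red where Batf3-/- cells were higher and blue where they were lower. Tlr1 in C6 stands farthest from 0 and all Cd180 points lie left of 0.

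Cd14 moved in opposite directions in the mature clusters. In mature cDC2a (C8) it stood at 11.1 CPM (46 UMIs in 22 of 531 cells) in WT and 21.6 CPM (92 UMIs in 35 of 469 cells) in Batf3-/- cells, a log2 ratio of 0.96 with an interval that left out 0. Up to 15 UMIs fell in 1 cell, so that interval, which treats UMIs as independent, is too narrow here. In C8 the monocyte markers (5 of 6 detected, Vcan at 0) summed to 220.5 and 309.4 CPM and the macrophage markers to 93.1 and 119.5 CPM, and their part in the ratio was not tested. In mature cDC2b (C11) it stood at 40.2 CPM (31.5 to 50.6) in WT and 23.8 CPM (18.2 to 30.6) in Batf3-/- cells, a log2 ratio of -0.75 (-1.27 to -0.24). A Cd14 UMI was found in 41 of 188 and 44 of 251 cells there, with up to 11 in 1 cell, so the same limit holds.

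The cells of C11 and C2 carry deposited reference labels from SingleR, which names each cell after the sorted population it resembles most, and Cd14 followed them. The labels were drawn from the same transcripts, which may include Cd14, so this split is not independent of Cd14. In C11 the cells labelled DC stood at 15.7 CPM (9.28 to 24.7) in WT and 16.3 CPM (11.1 to 23.1) in Batf3-/- cells. Those labelled monocytes stood at 69.7 and 43.2 CPM and those labelled macrophages, 20 and 27 cells, at 137 and 52.8 CPM. The log2 ratio was 0.06 (-0.83 to 0.98) in cells labelled DC, -0.69 (-1.56 to 0.14) in those labelled monocytes and -1.38 (-2.65 to -0.20) in those labelled macrophages, the last on 19 and 10 UMIs. Cells labelled DC were 63.3% (56.0 to 70.2) of C11 in WT and 70.5% (64.5 to 76.1) in Batf3-/-, with overlapping intervals. The macrophage markers (7 of 7 detected) summed to 3209 and 2659 CPM in C11 and the monocyte markers to 6338 and 5622 CPM. The neutrophil markers, with 1 of 4 at 0 in WT and 3 of 4 in Batf3-/-, summed to 87.1 and 16.0 CPM. The part of these markers in the ratio was not tested. In C2, cells labelled DC stood at 9.08 and 8.08 CPM and those labelled monocytes at 24.4 and 24.8 CPM.

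In the Sox4+ cDCs of C3, Cd14 lay in the cells with a UMI of Ccr2, the chemokine receptor of monocytes and early DCs, a division made after values were seen. These stood at 28.3 CPM (21.7 to 36.2) in WT and 23.5 CPM (19.9 to 27.6) in Batf3-/- cells. Cells without a Ccr2 UMI stood at 2.79 and 2.49 CPM. Cells with the UMI were deeper, at medians of 9668 and 10320 UMIs against 7894 and 8678. Tlr1 stood at 14.4 CPM with and 21.8 CPM without a Ccr2 UMI in WT, and at 12.5 and 17.8 CPM in Batf3-/- cells, with overlapping intervals in each library. Cd180 stood at 57.0 and 79.9 CPM in WT and at 64.6 and 68.8 CPM in Batf3-/- cells, where the intervals overlapped.

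**Figure D4:**
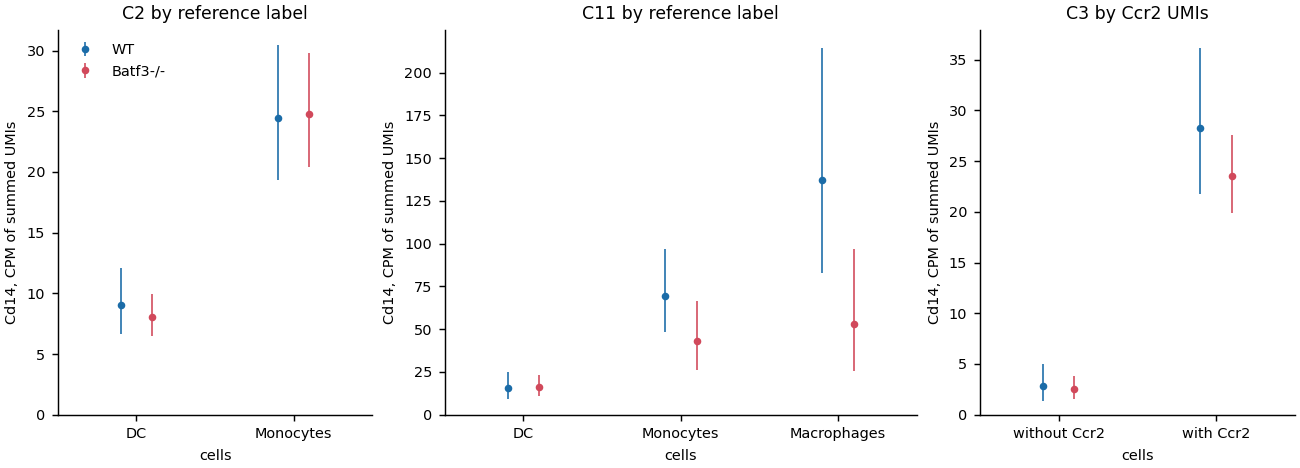
Cd14 in CPM (vertical axes, linear and different for each panel) in cells of C2 and C11 by their deposited reference label and in cells of C3 without and with a Ccr2 UMI, for WT (blue) and Batf3-/- (red). Bars are exact 95% Poisson intervals. Cells labelled DC in C11 stand near 16 CPM in both libraries, and in C3 the cells with Ccr2 stand above 20 CPM in both.

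Downstream of the receptors, a list of 26 adaptors, kinases, chaperones and accessory proteins was followed. Of 272 pairs of gene and cluster with enough UMIs, 6 were higher and 10 lower in Batf3-/- cells, and in C6 2 of 23 were higher and 3 lower, beside the shares over all genes given above. Myd88, the adaptor of the Toll-like receptors among the members, stood at 42.3 CPM in WT C6 and 65.5 CPM in Batf3-/- C6. Its log2 ratio was 0.63 (0.49 to 0.78), and Irak2, a kinase recruited by MyD88, had 0.74. Tirap, the adaptor that links TLR2 and TLR4 to MyD88, was lower, at 13.8 and 8.91 CPM, a log2 ratio of -0.63 (-0.97 to -0.30). Hsp90b1, the chaperone gp96 that folds these receptors, was lower in C6 at 934 and 530.6 CPM. Ticam1, which encodes TRIF, was past the fold only in C3 and C8 among clusters compared, with log2 ratios of 0.62 and 0.90, and was at 9.65 and 10.6 CPM in C6. The rest of the list past the fold were Tollip in C10 (-0.68), Tab1 in C7 (-0.61), Hsp90b1 in C15 (-0.71), Myd88 in C9 (0.71), Ly86 in C13 (0.65) and Ticam2 in C2 (-0.61) and C8 (-0.72).

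Cd36, a scavenger receptor that assists TLR2 with TLR6, is a known feature of cDC1. It stood at 85.3 CPM in WT C6 and 4.46 CPM in Batf3-/- C6, a log2 ratio of -4.26 (-4.66 to -3.89). It was also lower in C2 (6.27 and 1.70 CPM) and C11 (24.6 and 2.35 CPM). Ticam2, which encodes the bridging adaptor TRAM of TLR4, was also low in cDC1, with 20.9 CPM in C5, 15.3 CPM in C2, 1.79 CPM in C4 and 2.68 CPM in C6 over both libraries. Unlike Tlr1 it was not past the fold in C6, at 2.81 and 2.53 CPM, a log2 ratio of -0.16 (-0.85 to 0.52). Ly86 stood at 222 and 313 CPM in C6, a log2 ratio of 0.50.

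Profiles over the 17 clusters were compared on the log2(CPM + 1) scale among 10242 genes, as a description with no test. The gene most like Tlr1 was Scn2b (r = 0.92), followed by Man1a and Hap1, and for Tlr5 it was Knop1 (0.92), followed by Marveld1 and Stra6l. AB124611 was nearest to Tlr4 (0.94, with Tgfbi also among the nearest 3), Cdc42ep4 to Tlr2 (0.81, then Daglb and Tmem51) and Gm19951 to Tlr6 (0.87, then Irak4 and Ifih1). Trf was nearest to Cd14 (0.84, then Dusp3 and Nfe2l2) and Il27 to Ly96 (0.88, then H2-D1 and Idh1). Unc93b1, the transport protein of the endosomal Toll-like receptors, was nearest to Cd180 (0.82), followed by Gpr35 and Sh2b2. Of the 24 genes so chosen 10 were also among the nearest 3 in WT cells alone and 5 in Batf3-/- cells alone. Among the members themselves, Tlr1 was nearest to Tlr6 (0.81) and Tlr5 (0.72), and Tlr2 to Cd14 (0.71). The shallow C9 is highest for several of these genes, and its weight in the values was not tested.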

How the data were processed

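Transcripts of 24343 sorted splenic cells in 2 libraries were analysed. The authors aligned reads to GRCm38 with Cell Ranger 3.0.2 after bcl2fastq 2.2.0, evened depth between the libraries, and used Seurat 3.0.5 to keep genes in at least 3 cells and cells with 500 to 5000 genes, at most 20% mitochondrial and 50% ribosomal UMIs. The raw tables deposited by the authors hold UMI counts. Fractions of mitochondrial and ribosomal UMIs per cell were deposited by the authors from Seurat. Evening the depth discards reads of the deeper library. Clusters (resolution 0.5, 16 components), SingleR labels and cycle phases were taken as deposited. The antibody tables and the normalized tables were not used here. The members and all lists were chosen with earlier results of these data known.

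From the counts, CPM, shares and ratios were computed with scipy 1.17.1 and pandas 2.3.3 (Python 3.11.15), with numpy 2.4.6 for arrays, and figures with matplotlib 3.10.9. A cluster level needed 100 cells, a ratio 50 cells in each library and 50 UMIs over both. Scrublet in scanpy 1.11.5, at an expected rate of 0.1, marked 541 WT and 244 Batf3-/- cells as doublets, which were kept and left out as an alternative. Ratios were tested on simulated data for C6. The interval covered 191 of 200 changed genes, and 125 of 9886 unchanged genes (1.26%) were called. Differences between libraries that are not due to genotype cannot be judged from it. Positions come from GENCODE M21. Named genes were all members in every cluster, Ly86, Myd88, Tirap, Ticam1, Ticam2, Cd36 and others of the list past the fold, the 3 genes nearest to each member, and Batf3. One of the nearest genes is not reported here.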

Additional observations from a re-analysis of the deposited data

Results flagged for a closer look

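Cd14 had ratios of opposite direction in a pair of mature cDC2 clusters. The log2 CPM ratio, Batf3-/- over WT, was 0.96 in C8 and -0.75 in C11, each past 1.5-fold. The counting intervals leave out 0 but are too narrow, since up to 15 UMIs fell in 1 cell of C8 and up to 11 in 1 cell of C11. With 1 library per genotype the difference was not tested.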

How the results depend on the processing

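No paired analysis was possible because each genotype is 1 library, and for the same reason no replicate could be left out. Of 61 pairs of member and cluster at 10 CPM or more, 36 were at 20 CPM or more. The 13 of 66 pairs of member and cluster past 1.5-fold became 6 of 47 in G1 cells alone, 8 of 33 in S and G2M cells alone (chosen after seeing the data), 3 of 66 at 2-fold and 31 of 118 with no minimum of UMIs. In C6 the 4 of 6 became 1 of 2 in G1 cells, where WT had 13 cells. The 16 of 272 pairs of pathway gene and cluster became 3 of 272 at 2-fold, 37 of 323 with at least 20 UMIs and 63 of 375 with no minimum, and the 5 of 23 in C6 became 3 of 13 in G1 cells and 1 of 23 at 2-fold. The shares over all genes are given only for the main setting, so these changed counts of members and pathway genes are given without a reading. The number of member and cluster pairs with a UMI in at least 5% of cells went from 16 at 1000 UMIs per cell to 29 at 2000 and 75 without thinning, and cells with both Tlr4 and Ly96 from 0 to 1 and 52. Of the 24 nearest genes, 7 stayed by Spearman's rho, 10 in WT cells alone and 5 in Batf3-/- cells alone. Of 64 recomputed ratios of the 13, 57 stayed within the counting interval of the reported ratio, 6 left it, all in G1 cells with few UMIs and wide intervals of their own, and 1 reversed. That is Cd180 in C13, -0.66 with and 0.87 without called doublets, and the cause was not tested. Within that interval, 1.5-fold was no longer reached by Tlr6 in C1 without called doublets (-0.54), Tlr4 in C0 (0.56) and Ly96 in C8 (0.57) in G1 cells, Ly96 (0.23) and Cd14 (0.44) of C8 in S and G2M cells, and Cd180 in C13 in G1 cells (-0.41) and by per-cell CPM (-0.05). Depth limits Tlr4, Tlr5 and Tlr6, whose UMIs allow a ratio in at most 6 clusters.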
